A study of Mus musculus with 2 samples.

Results

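The genes described here are the amyloid precursor family, the proteases that cut it and close partners of both: App, Aplp1, Aplp2, Bace1, Adam10, Psen2, Ncstn, Apbb1 and Itm2b. They were chosen by name, and all 9 were found among the 43346 Ensembl gene rows of the deposited tables. RNA had been measured in 2 libraries, each from a laser-captured piece of layer 5 of the cerebral cortex of about 8000 square microns, entered in the labels as 50 cells, with spike-in RNA added. Both came from wild-type C57Bl6 male mouse tissue (strain given as B6NCrl in another label) aged 8 months, and they form 1 group with no contrast between conditions. The labels call them biological replicates 1 and 2 and also name a single donor for both. They were therefore read as areas of 1 animal, and an SD here is always the spread from area to area. With 1 library for each area no test was possible: an exact two-sided sign-flip test of 2 values cannot go below p = 0.5.

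The amyloid precursor protein and its relatives APLP1 and APLP2 are single-pass membrane proteins of neurons, with a large outer part and a short tail inside the cell. An outer cut by the alpha-secretase ADAM10, or by the beta-secretase BACE1, sheds the outer part, and gamma-secretase then cuts the remaining stump within the membrane. Gamma-secretase is a complex of a presenilin, nicastrin, a form of APH1 and PEN-2. The BACE1 and gamma-secretase cuts together release the amyloid-beta peptide from APP, while the ADAM10 cut falls inside that peptide; the relatives hold no amyloid-beta sequence. Cortical neurons are known to make mainly the short APP form that lacks a Kunitz-type protease inhibitor domain.

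Some stretches of the transcripts show what these genes share and what the results on transcripts turn on. All are from GENCODE M21 on GRCm38 and are written 5′ to 3′ in the direction of the gene. The amyloid-beta segment of App lies at chr16:84962794-84965720, minus strand, over 2 exons, and spans 42 codons of App-201. In it, capitals mark codons 16 and 17, between which the alpha-secretase cuts.
App amyloid-beta segment: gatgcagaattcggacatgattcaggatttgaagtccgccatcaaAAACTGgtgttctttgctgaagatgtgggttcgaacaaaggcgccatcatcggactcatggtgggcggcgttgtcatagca

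The inner tails of the family share a short motif that adaptor proteins such as FE65, the product of Apbb1, bind through a phosphotyrosine-binding domain. The stretches below are 42 bases long, at chr16:84955346-84955387 for App, chr7:30435305-30435346 for Aplp1 and chr9:31150886-31150927 for Aplp2, all on the minus strand, with the 4 codons of the motif in capitals.
App tail motif: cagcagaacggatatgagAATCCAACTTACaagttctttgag
Aplp1 tail motif: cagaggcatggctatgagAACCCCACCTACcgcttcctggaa
Aplp2 tail motif: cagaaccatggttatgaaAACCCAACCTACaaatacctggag

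In this window, App matched Aplp1 at 66.7% of bases and Aplp2 at 71.4%, and Aplp1 matched Aplp2 at 76.2%. The motif ended 8 codons before the stop in App-201 and Aplp2-201, and 7 codons before it in Aplp1-201.

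The precursor genes were among the more abundant transcripts of layer 5, and the secretase genes of the set stood about an order of magnitude lower. Levels are given in TPM, the authors' abundance unit, which is scaled for transcript length and library size. All 9 genes were above 1 TPM, the detection limit used here, in both areas. Their median was 136 and 159.7 TPM in replicates 1 and 2, against 13.2 and 14.1 TPM over the protein-coding genes that reached 1 TPM in both. The median of the 4 secretase genes, Adam10, Bace1, Psen2 and Ncstn, was 15.9 and 17.6 TPM in replicates 1 and 2. It was close to that of protein-coding genes in general. Together the 9 genes took 0.337% of the expected counts of replicate 1 and 0.379% of those of replicate 2.

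App, the amyloid precursor gene (ENSMUSG00000022892.10, chromosome 16 from 84949685 to 85173766, minus strand, GRCm38 like all positions here), had 368 TPM in replicate 1 and 403 TPM in replicate 2. Its mean was 386 ± 24.8 TPM (SD, n = 2), at rank 304 and rank 276 of 21474 protein-coding genes, from 23990 and 27168 expected counts. The areas thus gave nearly the same level for App.

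Aplp1, whose protein is found chiefly in neurons (ENSMUSG00000006651.7, chromosome 7, 30434982 to 30445535, minus strand), had 265 TPM in replicate 1 and 386 TPM in replicate 2, a mean of 326 ± 85.4 TPM (SD, n = 2). Its counts were 13089 and 19693. It was the family gene that differed most between the areas, and in replicate 2 it almost reached App. Aplp2, the most widely expressed relative (ENSMUSG00000031996.12, chromosome 9, 31149557 to 31211815, minus strand), had 136 TPM in replicate 1 and 159.7 TPM in replicate 2, a mean of 148 ± 16.9 TPM (SD, n = 2), from 10145 and 12403 counts.

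App was the leading family gene in both areas, and the 3 genes summed to 769 TPM in replicate 1 and 949 TPM in replicate 2. App gave 47.8% of that sum in replicate 1 and 42.5% in replicate 2, a mean of 45.2% ± 3.80 (SD, n = 2). Aplp1 gave 34.5% and 40.7%, a mean of 37.6% ± 4.38 (SD, n = 2). Aplp2 gave 17.7% and 16.8%, a mean of 17.2% ± 0.582 (SD, n = 2). The part of Aplp2 was therefore the steadiest, while App and Aplp1 traded several points between the areas.

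Adam10, the main alpha-secretase of neurons (ENSMUSG00000054693.10, chromosome 9, 70678997 to 70780229, plus strand), had 20.0 TPM in replicate 1 and 16.7 TPM in replicate 2, from 1938 and 1674 counts. Its mean was 18.4 ± 2.33 TPM (SD, n = 2). Bace1, the beta-secretase (ENSMUSG00000032086.8, chromosome 9, 45838580 to 45864399, plus strand), had 21.8 TPM in replicate 1 and 19.1 TPM in replicate 2, a mean of 20.4 ± 1.94 TPM (SD, n = 2). The genes for the competing outer cuts thus stood at similar levels, with Adam10 somewhat the lower in both areas. In replicate 1 that order is unsure, as their deposited credibility intervals overlapped, at 18.9 to 20.7 TPM for Adam10 and 20.5 to 23.1 TPM for Bace1. The ratio of Adam10 to Bace1 TPM was 0.919 in replicate 1 and 0.878 in replicate 2. The Bace1 level includes a transcript annotated as non-coding, described below. App exceeded Bace1 by 16.9-fold in replicate 1 and 21.1-fold in replicate 2, and exceeded Adam10 by 18.4-fold and 24.1-fold, all as ratios of TPM.

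The 2 gamma-secretase genes of the set had the lowest means of the 9, although Ncstn was above Adam10 in replicate 2. Psen2, a presenilin that forms the catalytic core of part of the gamma-secretase complexes (ENSMUSG00000010609.11, chromosome 1, 180227004 to 180263438, minus strand), had 11.8 TPM in replicate 1 and 12.1 TPM in replicate 2, a mean of 12.0 ± 0.233 TPM (SD, n = 2). Ncstn, which codes for nicastrin, the subunit that receives substrates (ENSMUSG00000003458.8, chromosome 1, 172066013 to 172082795, minus strand), had 10.6 TPM in replicate 1 and 18.5 TPM in replicate 2, from 592 and 1082 counts. Its mean was 14.5 ± 5.56 TPM (SD, n = 2). The ratio of Ncstn to Psen2 TPM was accordingly 0.899 in replicate 1 and 1.52 in replicate 2, so the order of these subunits by TPM was not the same in both areas. In replicate 1 that order is unsure, as their deposited credibility intervals overlapped, at 9.70 to 11.7 TPM for Ncstn and 10.5 to 14.7 TPM for Psen2.

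Apbb1, the gene for the adaptor FE65 that binds the APP tail (ENSMUSG00000037032.11, chromosome 7, 105558483 to 105581653, minus strand), was higher than Aplp2 in both areas. It had 170 TPM in replicate 1 and 257 TPM in replicate 2, a mean of 214 ± 60.9 TPM (SD, n = 2), and 0.463 and 0.637 of the App TPM. Itm2b (ENSMUSG00000022108.7, chromosome 14, 73362226 to 73385289, minus strand) codes for BRI2, a membrane protein with a BRICHOS domain that binds APP and whose mutant human forms cause familial dementias. It was the highest of the 9, at 787 and 845 TPM in replicates 1 and 2, a mean of 816 ± 40.7 TPM (SD, n = 2), at rank 116 and rank 96. Its ratio to App was 2.14 in replicate 1 and 2.10 in replicate 2.

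**Figure D1:**
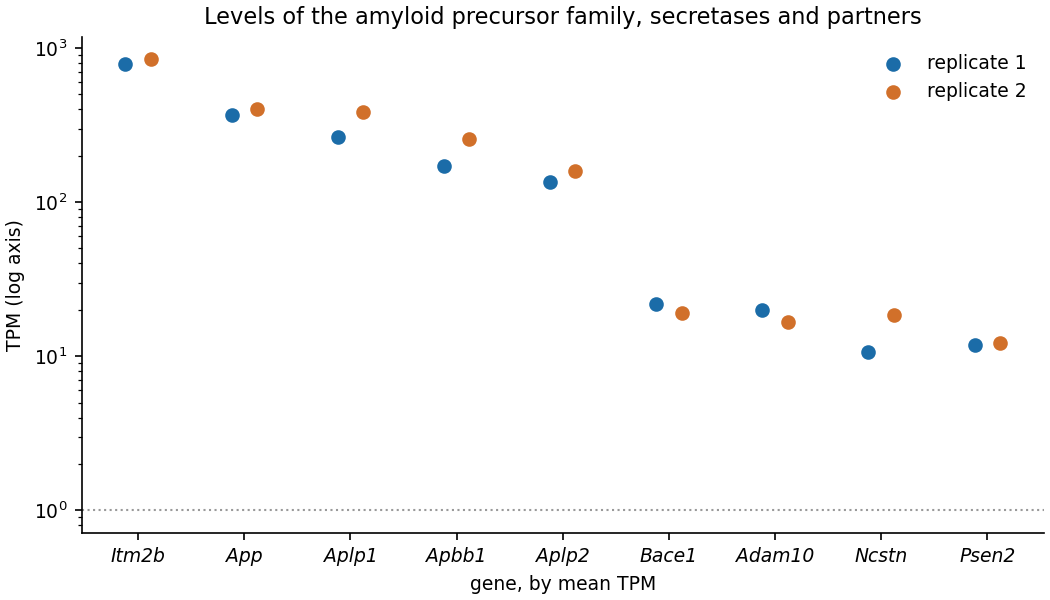
TPM on a log axis for each of the 9 genes, ordered by mean, with 1 point for each area, replicate 1 left and replicate 2 right, and a dotted line at 1 TPM. Bace1, Adam10, Ncstn and Psen2 lie at 21.8 TPM or less, and the other 5 genes lie at 136 TPM or more in both areas.

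By mean TPM the order was Itm2b, App, Aplp1, Apbb1, Aplp2, Bace1, Adam10, Ncstn and Psen2. Neighbours whose values overlapped between areas were App with Aplp1, Bace1 with Adam10, Adam10 with Ncstn, and Ncstn with Psen2. The pair of Adam10 and Ncstn and the pair of Ncstn and Psen2 stood in opposite order in the areas. These reversals are unsure, since the deposited credibility intervals overlapped for Adam10 and Ncstn in replicate 2 and for Ncstn and Psen2 in replicate 1. The widest step, 7.23-fold between the means of Aplp2 and Bace1, separated precursors and partners from the secretase genes of the set without overlap. Psenen, a gamma-secretase subunit gene outside the set, lay above that step, at 144 and 141 TPM in replicates 1 and 2.

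Reads could be shared with overlapping genes for 4 of the members, because the strand setting of the counting is not given. In the annotation, App and Psen2 overlap antisense genes, Bace1 overlaps Rnf214 and other genes, and Ncstn overlaps Copa, all on the opposite strand. Aplp1, Aplp2, Adam10, Apbb1 and Itm2b overlap no annotated gene.

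The areas differed little in most of these genes. The difference is given as the log2 ratio of TPM + 1, replicate 1 over replicate 2, a scale that understates differences of low genes. None of the 9 differed beyond 2-fold, against 10.3% of the 11841 protein-coding genes whose mean reached 1 TPM. That background was 14.9% at 1 to 20 TPM, where Psen2, Adam10 and Ncstn lie, 3.2% at 20 to 100 TPM, where Bace1 lies, and 1.14% at 100 TPM or more, so a count of 0 among 9 genes is near it. The median absolute log2 ratio was 0.23 for the members and 0.33 for the protein-coding genes. By level, the median of protein-coding genes was 0.42 at 1 to 20 TPM, 0.26 at 20 to 100 TPM and 0.19 at 100 TPM or more. Of the 5 members at 100 TPM or more, Aplp1, Aplp2 and Apbb1 lay above that last value, and App and Itm2b below it.

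Of the 9, 7 were higher in replicate 2 and 2 in replicate 1, against 54% and 45.9% of the protein-coding genes. The median log2 ratio was -0.13 for the members and -0.05 for the protein-coding genes. Adam10 and Bace1, which make the outer cuts, were the pair higher in replicate 1, with log2 ratios of 0.25 and 0.18. By counts, Bace1 was 1.33-fold higher in replicate 1 (95% Clopper-Pearson interval 1.25 to 1.42, counting error only), more than its TPM ratio shows. Psen2 had a log2 ratio of -0.04 by TPM. By counts scaled to library size, which are not corrected for transcript length, Psen2 was instead 1.22-fold higher in replicate 1 (95% Clopper-Pearson interval 1.05 to 1.41), from 397 and 354 counts, so its direction depends on the unit.

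Ncstn and Apbb1 differed most. The TPM of Ncstn was 1.74-fold higher in replicate 2, a log2 ratio of -0.75, and its count fold was 1.68 (95% Clopper-Pearson interval 1.52 to 1.87). The TPM of Apbb1 was 1.51-fold higher in replicate 2, a log2 ratio of -0.59, and its count fold was 1.49 (1.45 to 1.53). They were the 2 members beyond 1.5-fold, a limit chosen after seeing the data, which 26.6% of protein-coding genes passed. For genes at the level of Ncstn, 1 to 20 TPM, 35.4% passed it. For genes at the level of Apbb1, 100 TPM or more, 5.43% passed it, 3.65% with the higher value in replicate 2.

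Aplp1 came next, with a log2 ratio of -0.54 and a count fold of 1.39 in replicate 2 over replicate 1 (1.36 to 1.42). Aplp2 had a log2 ratio of -0.23, App -0.13 and Itm2b -0.10, and the count fold of App was 1.04 (1.03 to 1.06). These intervals cover counting error only, since reads of amplified libraries without molecular identifiers are not independent molecules. The deposited credibility intervals, which belong to the posterior mean estimate of TPM, did not overlap between the areas for 8 of the 9 genes, against 59.6% of protein-coding genes. The exception was Psen2, with 10.5 to 14.7 TPM in replicate 1 and 10.7 to 15.3 TPM in replicate 2.

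**Figure D2:**
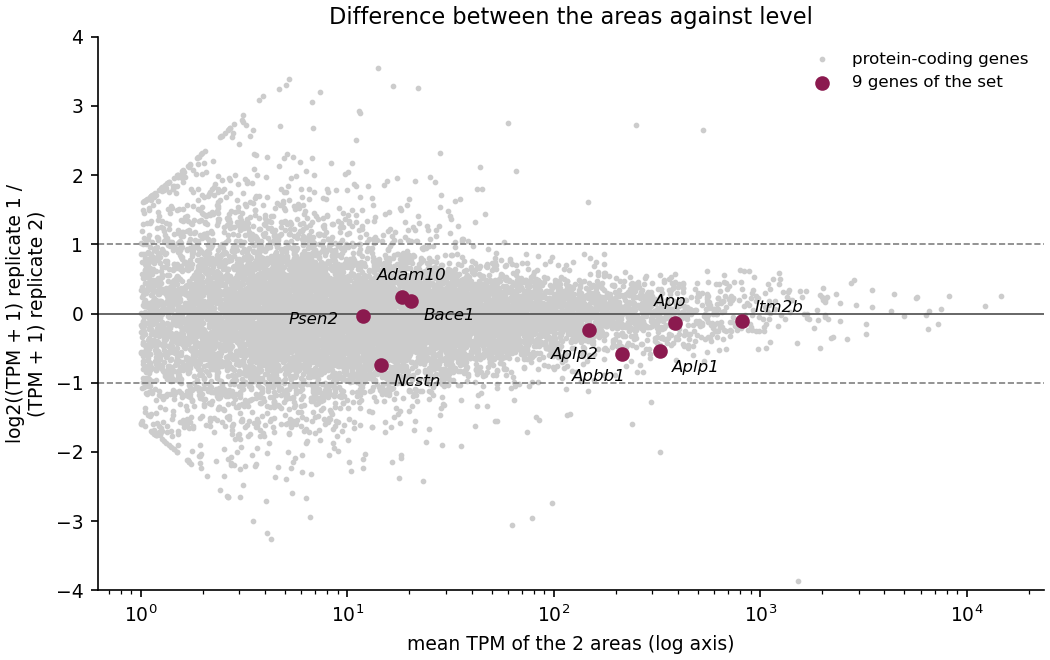
Log2 ratio of TPM + 1, replicate 1 over replicate 2, against mean TPM on a log axis, with 1 grey point for each of 11841 protein-coding genes and a dark point for each of the 9 genes; dashed lines mark 2-fold, and 11 genes lie outside the drawn range. All 9 dark points lie between the dashed lines, with Ncstn at -0.75 the lowest and Adam10 at 0.25 the highest.

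Markers of cell types also differed between the areas, and in tissue pieces more cells of a type and more RNA per cell cannot be told apart. All 6 neuron markers were at 1 TPM or more and were higher in replicate 2, with a summed level of 7783 TPM in replicate 1 and 9108 TPM in replicate 2. All 4 excitatory neuron markers were higher in replicate 2 by TPM as well, with sums of 1082 and 1357 TPM. By counts scaled to library size, however, Camk2a of that list was 1.02-fold higher in replicate 1. Of 6 layer 5 markers 5 were higher in replicate 2, with sums of 3070 and 3804 TPM. The 6 oligodendrocyte markers were all higher in replicate 2, with sums of 525 and 880 TPM and a median log2 ratio of -1.51. Of 8 microglial markers 7 were higher in replicate 1, with sums of 263 and 88.0 TPM.

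The GABAergic list summed to 1578 TPM in replicate 1 and 3107 TPM in replicate 2 with 5 of 6 markers at 1 TPM in both areas, but 3 of the 6 were higher in each area and the list medians ran the other way, at 109 and 48.5 TPM. Sst, the somatostatin gene, had 194 TPM in replicate 1 and 2859 TPM in replicate 2, while Gad1, a gene of GABA synthesis, had 438 and 65.2 TPM and Pvalb, which marks fast-spiking interneurons, 918 and 145 TPM. These 3 were named after their values were seen. The astrocyte list summed to 544 and 626 TPM, also with 5 of 6, as Gfap stayed under 1 TPM. All 5 endothelial markers reached 1 TPM in both areas, with sums of 113 and 51.3 TPM. Of 4 mural markers 2 did, with sums of 22.4 and 6.84 TPM, and Acta2 had a count of 0 in both. The higher values of Apbb1, Aplp1 and Ncstn in replicate 2 stand beside neuron, excitatory and oligodendrocyte marker levels that were higher by TPM. The GABAergic markers were divided, and the part of cell composition in the values of Apbb1, Aplp1 and Ncstn was not tested.

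The transcripts behind these levels were steady for some genes and not for others. The deposited tables list App, Aplp1 and Itm2b with 1 transcript each, so nothing can be said of their isoforms, and all reads of Adam10 went to Adam10-201 in both areas. Of the 6 members listed with 2 or more transcripts, 3 changed the share of their leading transcript by more than 10 points between areas: Aplp2, Bace1 and Psen2. The same was true of 30.5% of 4993 protein-coding genes at 10 TPM or more, whose median move was 5.36 points. At 100 TPM or more, the level of Aplp2 and Apbb1, it was 8.42% of 914 genes, with a median move of 2.44 points.

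App-201, the listed App transcript, codes for 695 residues and holds neither the 168-base exon of the Kunitz-type inhibitor domain nor the 57-base exon after it. Of the 11 App transcripts of the later annotation 6 hold the 168-base exon, but none of these is a row of the deposited tables, so the share of inhibitor-containing App was not measured. The matching exon of Aplp2 could be followed. It lies at chr9:31167561-31167728, minus strand, and that of App at chr16:85043576-85043743, minus strand.
Aplp2 168-base exon: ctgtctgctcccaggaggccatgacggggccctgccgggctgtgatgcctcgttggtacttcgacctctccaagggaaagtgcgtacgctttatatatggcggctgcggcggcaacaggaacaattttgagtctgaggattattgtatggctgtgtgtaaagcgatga
App 168-base exon: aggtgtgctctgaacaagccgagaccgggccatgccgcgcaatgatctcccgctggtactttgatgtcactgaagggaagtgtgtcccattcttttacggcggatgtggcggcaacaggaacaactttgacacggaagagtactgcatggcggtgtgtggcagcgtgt

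The exons are of equal length and have the same base at 114 positions, or 67.9%. Each holds 6 cysteine codons, and 69.1% of their 55 whole codons code for the same amino acid.

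Aplp2-201, which carries the inhibitor exon, had 46.3 TPM in replicate 1 and 76.7 TPM in replicate 2, or 34.1% and 48.0% of the gene, a mean of 41.1% ± 9.85 (SD, n = 2). Its counts were 3545 and 6073, 1.58-fold higher in replicate 2 relative to library size (95% Clopper-Pearson interval 1.51 to 1.65, counting error only). Aplp2-202, which skips it, had 89.5 TPM in replicate 1 and 83.0 TPM in replicate 2, with a count fold of 0.884 (0.854 to 0.915) in replicate 2 over replicate 1. These count intervals leave out the uncertainty of assigning reads to transcripts. The deposited credibility intervals of Aplp2-202 overlapped between the areas, at 80.8 to 92.7 TPM in replicate 1 and 74.9 to 86.1 TPM in replicate 2. Those of Aplp2-201, at 40.2 to 51.2 and 69.9 to 80.6 TPM, did not. The excess of Aplp2 in replicate 2 thus lay in the transcript with the inhibitor exon. The transcript without it had the higher TPM in both areas, but in replicate 2 the credibility intervals of the 2 transcripts overlapped.

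These transcripts differ in a further exon of 36 bases at chr9:31156190-31156225, minus strand, which the tables list only in Aplp2-202.
Aplp2 36-base exon: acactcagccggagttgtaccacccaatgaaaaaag

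Reads of any Aplp2 transcript that held both exons, or neither, had to be assigned to the 2 listed ones, so the shares describe those models.

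Apbb1 has a 6-base exon, known to be used in neuronal transcripts, that lengthens the first phosphotyrosine-binding domain of FE65 by a pair of residues. It lies at chr7:105565946-105565951, minus strand. The joined sequence is shown with 18 bases on each side, the exon in capitals, beside the junction that skips it; both run within chr7:105565630-105566068.
Apbb1 with the 6-base exon: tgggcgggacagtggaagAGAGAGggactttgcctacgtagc
Apbb1 without the 6-base exon: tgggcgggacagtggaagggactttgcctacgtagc

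Transcripts with this exon made up 91.8% of Apbb1 TPM in replicate 1 and 90.5% in replicate 2, a mean of 91.2% ± 0.934 (SD, n = 2). Among transcripts that span the site the shares were 93.2% and 90.6%. Inclusion of the neuronal exon was thus almost equal in the areas, although the level of the gene differed by 1.51-fold.

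The leading Apbb1 transcript, Apbb1-215, was also steady, with 60.22% in replicate 1 and 60.15% in replicate 2, or 103 and 154 TPM. Apbb1-219 had 18.8% and 21.9%. Minor transcripts moved more: Apbb1-209 had 10.2% in replicate 1 and 4.62% in replicate 2, and Apbb1-201 had 1.89% and 7.41%. The deposited credibility intervals of Apbb1-209 overlapped between the areas, at 10.7 to 22.2 TPM in replicate 1 and 6.73 to 16.4 TPM in replicate 2. Those of Apbb1-201 did not. A 735-base exon at chromosome 7, 105573682 to 105574416, present whole or for over 700 bases in 4 listed transcripts, accounted for 22.1% of TPM in replicate 1 and 29.7% in replicate 2.

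Much of the Bace1 level came from a transcript that is annotated as non-coding. Bace1-201, the coding form, had 10.9 TPM in replicate 1 and 6.65 TPM in replicate 2, from 1399 and 882 counts. Its count fold in replicate 2 over replicate 1 was 0.581 (95% Clopper-Pearson interval 0.533 to 0.633, counting error only). Bace1-204, a retained-intron form, had 10.9 TPM in replicate 1 and 12.4 TPM in replicate 2, from 715 and 842 counts, with a count fold of 1.09 (0.981 to 1.20). The deposited credibility intervals of Bace1-201 did not overlap between the areas, and those of Bace1-204 did. The higher Bace1 value of replicate 1 thus lay in the coding form, and the non-coding form differed by less than counting error allows. The coding form alone stood below Adam10 in both areas.

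Bace1-204 shares 2981 of its 3146 bases, or 94.8%, with the exons of Bace1-201. Only 165 bases at its start are its own, and its last exon has 2166 bases in place of 4346. The border of those bases is shown from chr9:45852852-45852911, plus strand, with the 36 bases outside Bace1-201 in capitals.
Bace1-204 border: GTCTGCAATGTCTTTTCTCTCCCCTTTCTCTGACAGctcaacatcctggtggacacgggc

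Bace1-201 in turn holds 3077 bases that Bace1-204 lacks, 2180 of them in the last exon and the rest in other exons. The division of reads between these forms rests on those bases and on the short stretch at the start of Bace1-204. By TPM, Bace1-204 made up 50.0% in replicate 1 and 65.1% in replicate 2. By counts, which are not divided by length, it made up 33.8% and 48.8%.

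Psen2 was listed with 12 transcripts, of which 3 were above 0 in both areas. Psen2-205, which is coding, had 8.26 TPM in replicate 1 and 6.14 TPM in replicate 2, or 70.1% and 50.65% of the gene. By posterior mean TPM it had 45.7% in replicate 1 and 30.4% in replicate 2. Psen2-207, which is annotated as non-coding, had 18.8% and 25.5%. Psen2-202 had 10.4% in replicate 1 and 0% in replicate 2, while Psen2-208 had 0% and 12.2% and Psen2-210 had 0% and 6.19%. Transcripts annotated as non-coding made up 19.5% of TPM in replicate 1 and 49.3% in replicate 2, but 5.84% and 26.8% of counts. For every listed Psen2 transcript the deposited credibility intervals overlapped between the areas. Those of Psen2-205 were 3.03 to 8.17 TPM in replicate 1 and 1.84 to 5.72 TPM in replicate 2. With 397 and 354 counts for the whole gene, several of these transcripts rest on few reads: Psen2-202 on 36.4 in replicate 1, and Psen2-208 on 35.1 and Psen2-207 on 30.2 in replicate 2.

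Ncstn-201, the coding form of nicastrin, held 87.8% of the gene in replicate 1 and 91.9% in replicate 2, with 9.31 and 17.0 TPM. By posterior mean TPM it held 77.3% and 77.4%. The difference in Ncstn between the areas was therefore present in its coding transcript.

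**Figure D3:**
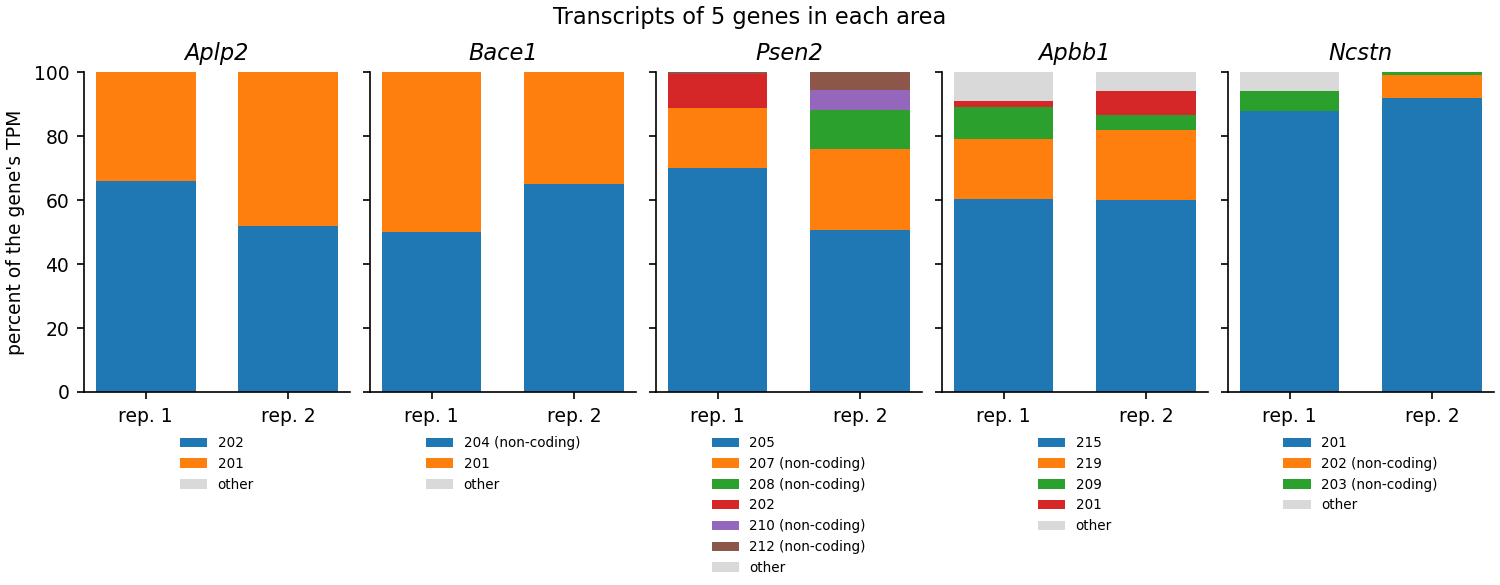
Percent of each gene's TPM from its transcripts, as stacked bars for replicate 1 (left) and replicate 2 (right) of Aplp2, Bace1, Psen2, Apbb1 and Ncstn, with transcript numbers in the legends. Aplp2-202 holds 65.9% in replicate 1 and 52.0% in replicate 2, Bace1-204 holds 50.0% and 65.1%, and Apbb1-215 holds 60.22% and 60.15%.

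Genes around the precursor proteins were described through 6 lists of 79 symbols, of which 78 were matched, among them 6 members. In all, 67 were at 1 TPM or more in both areas, and 8 were under 1 TPM in both. Of the related genes that are no members, 62 reached a mean of 1 TPM, and 5 of these differed beyond 2-fold, 2 with the higher value in replicate 1 and 3 in replicate 2; the background for protein-coding genes is the 10.3% given above.

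The gamma-secretase subunits and modulators had a median of 10.6 TPM in replicate 1 and 12.1 TPM in replicate 2, with 8 of 9 at 1 TPM or more in both. Psenen, which codes for PEN-2, the smallest subunit, was the highest at 144 and 141 TPM in replicates 1 and 2, far above Psen2 and Ncstn. Of the APH1 genes, Aph1b had 9.20 and 7.63 TPM, Aph1a 3.95 and 4.85 TPM, and Aph1c 3.48 and 2.90 TPM. These were named after their values were seen, and reads of the near-identical Aph1b and Aph1c may have been divided uncertainly. Tmed10, which codes for a trafficking protein that also binds the complex, had 25.5 and 20.8 TPM in replicates 1 and 2, and Gsap, named for activating the complex, 0.17 and 0.60 TPM. The measured subunits thus ranged over more than an order of magnitude in TPM.

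The outer proteases and their regulators had medians of 6.48 and 15.2 TPM in replicates 1 and 2, and 13 of 15 reached 1 TPM in both. The highest were the reticulons Rtn3, at 399 and 551 TPM in replicates 1 and 2, and Rtn4, at 295 and 342 TPM, membrane proteins of the endoplasmic reticulum that bind BACE1. Tetraspanins that escort ADAM10 to the surface followed, Tspan17 at 87.4 and 134 TPM in replicates 1 and 2 and Tspan5 at 89.0 and 112 TPM. Those regulators, the highest of the list, stood above Adam10 and Bace1 themselves in both areas. Other tetraspanins of the list were lower than Adam10 and Bace1. Tspan14 had 4.19 and 7.38 TPM in replicates 1 and 2, and Tspan15 1.15 and 1.26 TPM, both named after their values were seen. Rhbdf1, a carrier of the related protease ADAM17, had 0.60 and 0.99 TPM, and Rhbdf2 had a count of 0 in both areas, which allows up to 3 counts.

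Other proteases that can cut APP were lower than Adam10 and the whole Bace1 gene. The coding form Bace1-201 alone, at 10.9 TPM in replicate 1 and 6.65 TPM in replicate 2, had less TPM than Adam9 in both areas. Adam9 had 11.6 TPM in replicate 1 and 15.2 TPM in replicate 2, Adam17 2.31 and 2.76 TPM, and Bace2 1.09 and 1.59 TPM. These were named after their values were seen.

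Among intracellular adaptors 14 of 15 genes were matched, and 13 reached 1 TPM in both areas, with a median of 25.4 TPM in replicate 1 and 21.1 TPM in replicate 2. Apbb1 was the highest of them in both areas. It was followed by Nae1, which codes for an APP-binding part of the NEDD8-activating enzyme, at 74.1 TPM in replicate 1 and 62.1 TPM in replicate 2. Apba2, for the adaptor X11-beta, had 58.4 and 66.7 TPM, and Dab1, the reelin pathway adaptor, 45.2 and 38.2 TPM. Apbb1ip, whose protein is found in blood cells, had 0.59 and 0 TPM.

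All 13 sorting and uptake genes reached 1 TPM in both areas, with medians of 17.1 and 22.9 TPM in replicates 1 and 2, and 11 of 13 were higher in replicate 2, against 54% of protein-coding genes. The retromer gene Vps35 had 111 and 114 TPM in replicates 1 and 2, and its partner Vps26a 27.6 and 55.5 TPM. Bin1, which codes for a membrane-bending endocytic protein, had 54.8 and 61.9 TPM. Sorl1, the gene for a sorting receptor that holds APP back from the secretases, had 29.5 and 55.1 TPM.

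Enzymes that break down amyloid-beta and BRICHOS family genes had a median of 16.1 TPM in replicate 1 and 18.5 TPM in replicate 2. Cst3, for the protease inhibitor cystatin C, had 2281 and 1925 TPM. The relatives of Itm2b were lower than it, Itm2c at 188 and 218 TPM in replicates 1 and 2 and Itm2a at 45.7 and 53.1 TPM, so Itm2b led its family in both areas. Furin, the protease that trims BRI2, had 0.22 and 0.23 TPM.

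Of 17 other substrates of BACE1 or gamma-secretase 12 reached 1 TPM in both areas, with medians of 11.4 TPM in replicate 1 and 13.7 TPM in replicate 2. The sodium channel subunit gene Scn2b had 170 TPM in replicate 1 and 237 TPM in replicate 2, Sez6l2 88.3 and 103 TPM, and the ephrin receptor gene Epha4 41.7 and 43.4 TPM. The developmental substrate genes Jag1, at 0.78 and 0.65 TPM, and Notch1, at 0.43 and 0.60 TPM, were under 1 TPM in both areas. App at 368 and 403 TPM exceeded every gene of this list.

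The 5 related genes beyond 2-fold were named after their values were seen. Mme, the gene for the amyloid-degrading enzyme neprilysin, had 4.86 TPM in replicate 1, from 521 counts, and 0 TPM in replicate 2, from 0 counts. Adam19 had 3.78 TPM in replicate 1 and 1.35 TPM in replicate 2, from 197 and 164 counts. Its count fold was only 1.30 in replicate 1 over replicate 2, so its difference beyond 2-fold depends on the unit. Timp3, for a metalloprotease inhibitor, had 6.48 and 16.8 TPM, Numbl 3.55 and 8.32 TPM, and Gga2, which sorts BACE1 in the Golgi, 4.73 and 13.8 TPM. The count fold of Numbl, replicate 1 over replicate 2, was 0.508, just short of 2-fold. Those of Timp3 and Gga2 were 0.381 and 0.329. None of the 5 exceeded 20 TPM in either area, the range in which 14.9% of protein-coding genes differed beyond 2-fold.

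**Figure D4:**
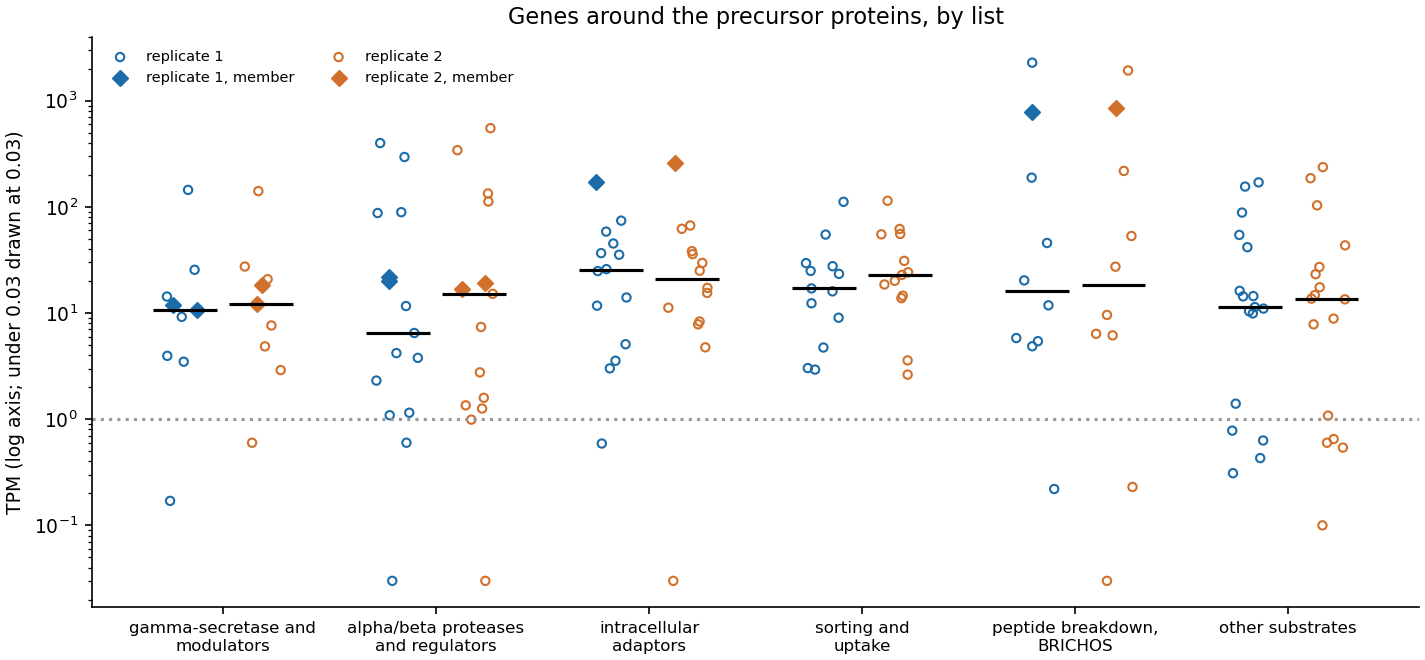
TPM on a log axis of the genes of the 6 related lists, replicate 1 left and replicate 2 right in each list, with open circles for genes, filled diamonds for the 6 members among them, bars at list medians and a dotted line at 1 TPM. Psen2 and Ncstn lie near the gamma-secretase medians of 10.6 and 12.1 TPM, and Apbb1 is the highest of the adaptors.

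By Euclidean distance over the 2 values of log2(TPM + 1), the protein-coding genes outside these lists whose levels were most like those of App were Prkcb, a protein kinase C gene, at 362 TPM in replicate 1 and 399 TPM in replicate 2 (distance 0.028), Napa, a membrane fusion gene, at 374 and 393 TPM (0.042), and Acot7, a thioesterase gene, at 367 and 419 TPM (0.055). The likeness is over 2 samples of 1 tissue and describes level alone.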

How the data were processed

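RNA was measured in 2 laser-captured layer 5 areas, libraries of 26059117 (replicate 1) and 28276843 (replicate 2) expected counts. The deposited tables give, per gene and transcript, an expected count, TPM scaled by the authors over all features of a library, a posterior mean TPM with a credibility interval, and each transcript's percent of its gene. The bounds of that interval, a signal in units of TPM, were used as deposited by the authors. Text files deposited beside the tables name assembly mm10 and annotation M4. The tables have the layout of RSEM, but which program, version, aligner and strand setting were used is not given in the sources used here. Symbols, exons and transcript sequences came from GENCODE M21 on GRCm38, which gave symbols to 42462 of 43346 gene rows; exon positions and transcript classes can therefore differ slightly from the release used for counting.

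The areas differed beyond sampling noise (chi-square per degree of freedom 69.5 over 14131 genes with at least 50 counts) and were treated as separate libraries. Mitochondrially encoded genes took 5.77% and 5.08% of counts and spike-ins with other non-Ensembl rows 7.19% and 7.94%; rows that name no gene held 20.3 and 5 counts and were left out. The members and lists were chosen with earlier results of these data known. Named were all members, the 4 highest genes of each list, up to 2 under 1 TPM in both areas and the 3 genes nearest to App; 1 listed gene was not analysed here, and some genes the rule took are not reported here. Differences were log2 ratios with a pseudocount of 1, and count folds carry 95% Clopper-Pearson intervals on expected counts rounded to whole numbers. No p-value was computed. The ratio procedure was tested on simulated data. Alternatives were another pseudocount, other scalings and TPM limits, expected counts, posterior mean TPM and leaving out each library. For TMM factors, expected counts were rounded and passed to edgeR 4.0.16 (R 4.3.3). Python 3.11.15 served for the rest, with pandas 2.3.3 and numpy 2.4.6 for tables, scipy 1.17.1 for intervals and matplotlib 3.10.9 for plots.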

Additional observations from a re-analysis of the deposited data

How the results depend on the processing

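The number of members beyond 2-fold stayed 0 under every scaling and pseudocount tried and was 2 with a limit of 1.5-fold. The share of protein-coding genes beyond 2-fold, 10.3%, was 6.09% at a mean of at least 5 TPM, 7.08% with no filter, 3.98% between 10 and 500 TPM and 15.2% with a pseudocount of 0.1. Of the 9 log2 ratios, only that of Psen2 changed sign in these alternatives: at -0.04 as reported, it was 0.24 with CPM and TMM factors and 0.01 after centring on the median gene, which gives 3 members higher in replicate 1 in place of 2. The log2 ratio of Bace1, 0.18 as reported, kept its sign but was 0.38 with CPM and TMM factors. Rescaling TPM over nuclear genes alone raised the levels by construction, for App to 498 TPM in place of 386. By expected counts the ratio of Adam10 to Bace1 was 0.944 in place of 0.898, and Bace1-204 made up 41.3% in place of 57.6%; the cause lies in leaving out transcript length. With posterior mean TPM the mean share of Psen2-205 was 38.0% in place of 60.4%, that of Ncstn-201 77.4% in place of 89.8%, and the 6-base exon of Apbb1 was in 89.4% in place of 91.2%; the cause was not tested. The settings on transcripts and the limit of 1.5-fold were chosen after seeing the data.

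With either library left out, App gave 42.5 to 47.8% of family TPM, Aplp1 34.5 to 40.7% and Aplp2 16.8 to 17.7%. The ratio of Adam10 to Bace1 was 0.878 to 0.919. The Aplp2 inhibitor exon was in 34.1 to 48.0%, the Apbb1 exon in 90.5 to 91.8%, Bace1-204 gave 50.0 to 65.1% of Bace1, and non-coding transcripts gave 19.5 to 49.3% of Psen2, where replicate 1 alone gives less than the 34.4% of both by over 1.5 times. No paired analysis was possible because there is 1 group. Depth limits Psen2 and its transcripts most, and an SD of 2 areas of 1 animal says nothing of other animals.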
